A study of Mus musculus with 6 samples.

Results

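The genes described here are 60 members of the WNT pathway, chosen by name to cover ligands, receptors, secreted inhibitors, the R-spondin axis, feedback targets, cytoplasmic transducers, TCF/LEF factors and the proteins that release WNT from the cell. The deposited table held a row for 59 of them among 17001 rows, and Sost was not analysed here. In all, 48 of the 59 passed the filter used for testing, a value of 1 FPKM or more in 3 or more libraries, as did 11590 of the 17001 rows. FPKM (sequenced fragments over transcript length, relative to the library total) takes transcript length into account, so the levels of different genes can be set side by side.

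The RNA came from cultured preosteoblasts, the precursors of bone-forming osteoblasts, taken from the calvaria (skull cap) of 3-day-old mice. All 6 libraries came from animals with both Nell2 alleles floxed (NELL2 fx/fx). The 3 control libraries carried no other listed allele, and the 3 others carried Col1-cre as well (Col1-cre; NELL2 fx/fx, here cKO), in which a fragment of the Col1a1 promoter drives Cre recombinase in cells of the osteoblast lineage. The comparison asked how deletion of Nell2, which encodes a secreted glycoprotein, changed gene expression in these cells. The labels do not say whether replicates came from separate animals or cultures, so p-values measure the spread between these libraries, which may be technical in part.

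The targeted gene was examined first. Nell2 (chromosome 15 of GRCm38, 95075230 to 95528559, minus strand) stood at 3.17, 2.59 and 1.88 FPKM (control replicates 1 to 3) against 5.64, 1.61 and 5.74 FPKM (cKO replicates 1 to 3). Its level in the cKO-labelled libraries was thus not reduced (log2 difference 0.48, SE 0.37, limma adjusted p = 0.591). The study itself checked the deletion in calvarial preosteoblasts by qRT-PCR and western blotting and reported it as achieved. A gene-level value does not separate the floxed stretch from the rest of the gene, and every direction given here follows the labels. Genes of the osteoblast lineage were present in every library, with Col1a1 (the main bone collagen) at 8052.61 to 8578.05 and Runx2 (the master factor of the lineage) at 10.98 to 14.71 FPKM. Genes of the Y chromosome were expressed in control replicate 3 and cKO replicates 1 and 3 (summed FPKM of 4 genes 49.57 to 54.74) and were at or near 0 in the other 3 libraries (0.01 to 0.29), so the libraries of a group did not all come from the same animals. The FPKM of a library summed to between 573307 and 606428. FPKM does not carry the number of reads, so depth is unknown and no counting interval or floor is given.

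WNT proteins are lipid-modified by the acyltransferase Porcn and carried to the cell surface by Wls. At the receiving cell they bind a frizzled receptor together with Lrp5 or Lrp6, the complex of Axin and Apc that marks β-catenin (Ctnnb1) for destruction is inhibited, and β-catenin joins TCF/LEF factors on DNA at target genes such as Axin2. In bone the pathway is known to favour osteoblast formation, and several secreted antagonists restrain it.

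TCF/LEF factors bind DNA at a short element whose letters were searched on both strands of the promoters in the RefSeq table (GRCm38.p6, 250 bases before to 50 after the start of each gene). Of the 60 members, 39 had a promoter in that table. The element, searched as CTTTGAT and its reverse complement ATCAAAG, was present in 2 of these 39 (5.13%), the ligands Wnt5b and Wnt11, and in 1160 of the 27025 promoters of all genes (4.29%). The shorter core of the same element, CTTTG or CAAAG, searched in the 250 bases before the start, was present in 15 of the 39 (38.5%) and in 52.2% of all 27025. The promoters of Axin2, the most used reporter gene of the pathway, and of Dkk2, the member with the smallest p-value in the comparison of groups, are shown 5′ to 3′ for those 250 bases, with the core in capitals. Axin2 has its window at chr11:108920099-108920348 and Dkk2 at chr3:132085042-132085291, both on the plus strand of GRCm38.p6.
Axin2: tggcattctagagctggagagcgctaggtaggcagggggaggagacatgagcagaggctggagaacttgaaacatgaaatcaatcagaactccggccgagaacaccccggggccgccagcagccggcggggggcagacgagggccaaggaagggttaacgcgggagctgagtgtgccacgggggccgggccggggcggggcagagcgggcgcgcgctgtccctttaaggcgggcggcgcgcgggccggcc
Dkk2: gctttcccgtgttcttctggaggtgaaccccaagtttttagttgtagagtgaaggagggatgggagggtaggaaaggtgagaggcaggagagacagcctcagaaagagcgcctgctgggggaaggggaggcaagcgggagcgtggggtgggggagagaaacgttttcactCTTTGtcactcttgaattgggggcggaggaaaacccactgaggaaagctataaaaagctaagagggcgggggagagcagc
The window of Axin2 held 0 copies of the core and that of Dkk2 held 1, which describes these letters only.

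In every library the summed RNA of the listed ligands was lower than that of the frizzled receptors and that of the secreted inhibitors. Most of the inhibitor sum came from Sfrp2, Dkk3 and Sfrp1. The FPKM of the 10 ligands summed to between 31.39 and 40.85 per library, that of the 9 frizzled receptors to between 155.81 and 178.95, and that of the 9 secreted inhibitors to between 445.04 and 709.27. Summed inhibitor FPKM was 16.5, 13.6 and 17.4 times the summed ligand FPKM in the control libraries and 13, 16.9 and 14.7 times in the libraries labelled cKO (15.8 ± 1.97 against 14.9 ± 1.97, SD, n = 3), so the ratio overlapped between the groups. These are RNA levels of a bulk sample, in which fewer cells of a type and less RNA per cell cannot be told apart.

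**Figure D1:**
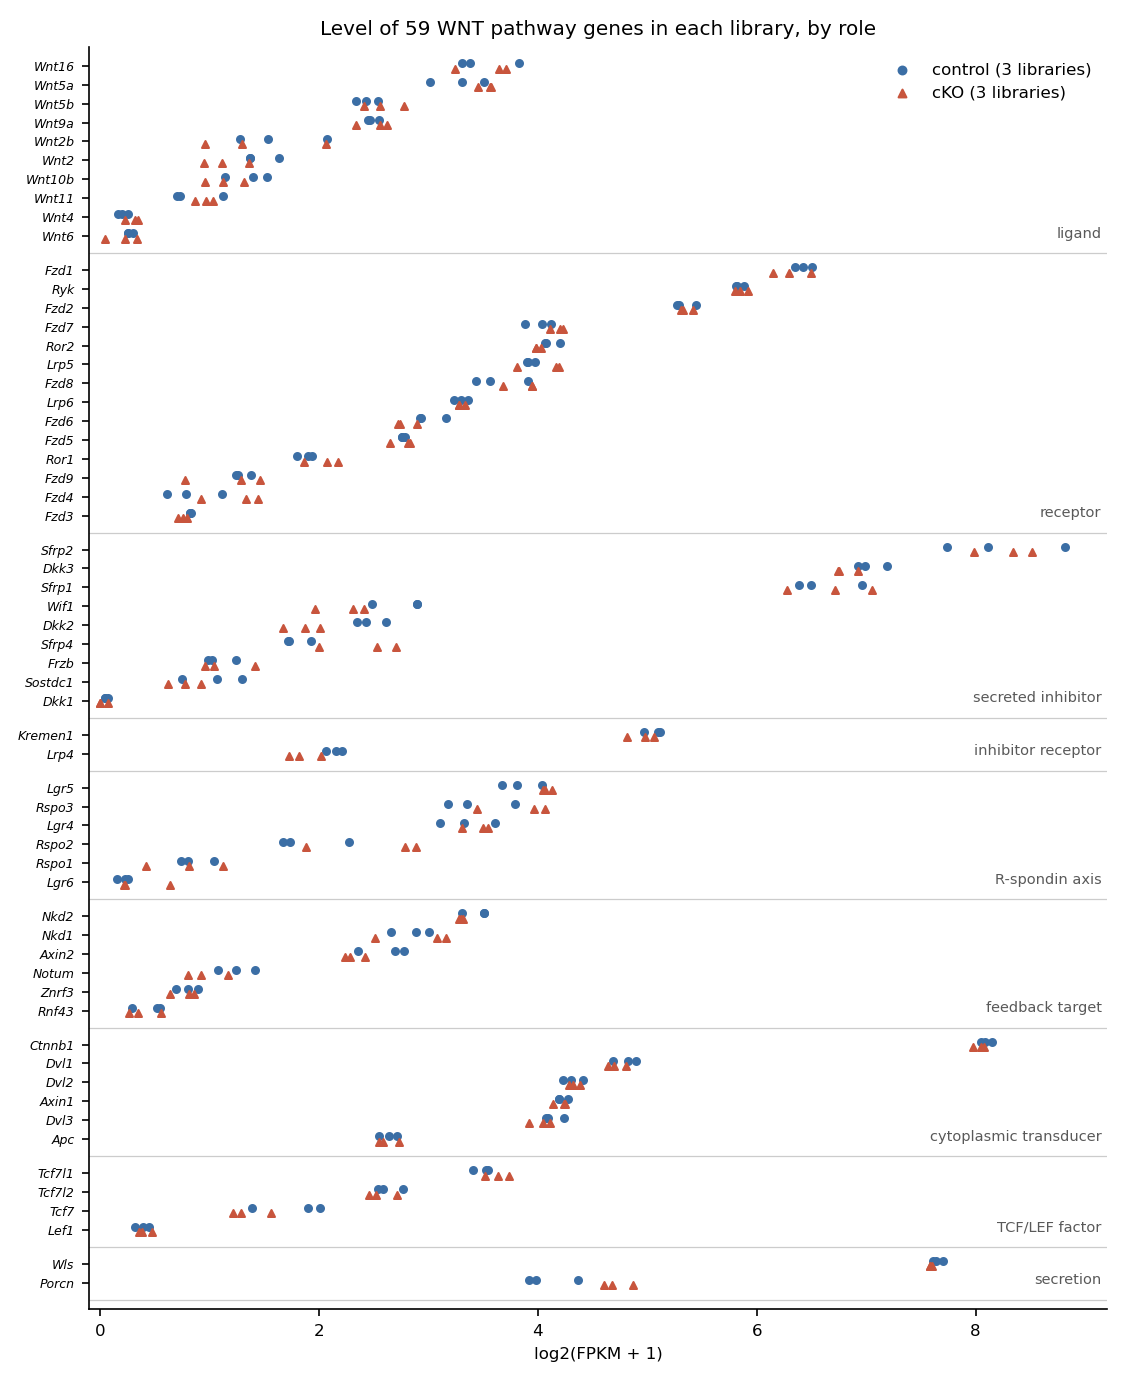
Level of each of the 59 members with a row, as log2(FPKM + 1) on the horizontal axis, grouped by role and ordered by mean level within a role; each circle is a control library and each triangle a library labelled cKO. Ctnnb1, Wls and Sfrp2 lie far to the right, none of them under 190.25 FPKM in any library, and most pairs of groups overlap.

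Among the ligands, Wnt16 (mean FPKM over the 6 libraries 10.6) and Wnt5a (9.67), a ligand best known for signalling without β-catenin, were highest. Wnt16 exceeded Wnt5a in 4 of 6 libraries, so their order was not stable, whereas Wnt5a exceeded the next gene, Wnt5b (4.72), in 6 of 6. Wnt5b and Wnt9a (4.65) could not be ordered either. Wnt2b, Wnt2 and Wnt10b followed at 2.02, 1.49 and 1.39. Wnt11, Wnt4 and Wnt6 were under the filter at 0.882, 0.192 and 0.178. Wnt16 and Wnt5a together made up most of the summed FPKM of the 10 listed ligands, with 24.3% to 34.2% and 22.5% to 31.0%. Wnt7b, at 1.86 to 2.89 FPKM, is not among the 10 and is left out of these shares.

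Receptor RNA was dominated by Fzd1 (mean FPKM 82.0), Ryk (56.7), an atypical WNT receptor of the tyrosine kinase family, and Fzd2 (39.7), an order kept in 6 of 6 libraries. Fzd1 held 44.9% to 52.3% and Fzd2 22.8% to 24.9% of the frizzled FPKM. Fzd7, Ror2 and Lrp5 (16.2, 15.7 and 15.0) were close to each other, and neighbouring genes among these 3 changed place in 2 of 6 libraries. Lrp6, the other β-catenin co-receptor, was lower than Lrp5 in every library at 8.84. Fzd6, Fzd5, Ror1, Fzd9, Fzd4 and Fzd3 were between 6.48 and 0.730.

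The inhibitors were split between 3 abundant genes and 6 scarce ones. Sfrp2 (313) and Sfrp1 (101), decoys that bind WNT through a frizzled-like domain, and Dkk3 (121), a divergent Dickkopf protein, stood far above Wif1 (4.78), Dkk2 (3.57), Sfrp4 (3.45), Frzb (1.18), Sostdc1 (0.895) and Dkk1 (0.0267). Dkk1, the best known Dickkopf antagonist of Lrp5 and Lrp6, was at or near 0 in each library, at 0.03, 0.05 and 0.03 in the control libraries and 0.05, 0 and 0 in the cKO-labelled ones. Sfrp2 alone held 47.9% to 63.4% of the inhibitor FPKM. Its level varied more between control libraries (212.98 to 449.69) than the group means differed.

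**Figure D2:**
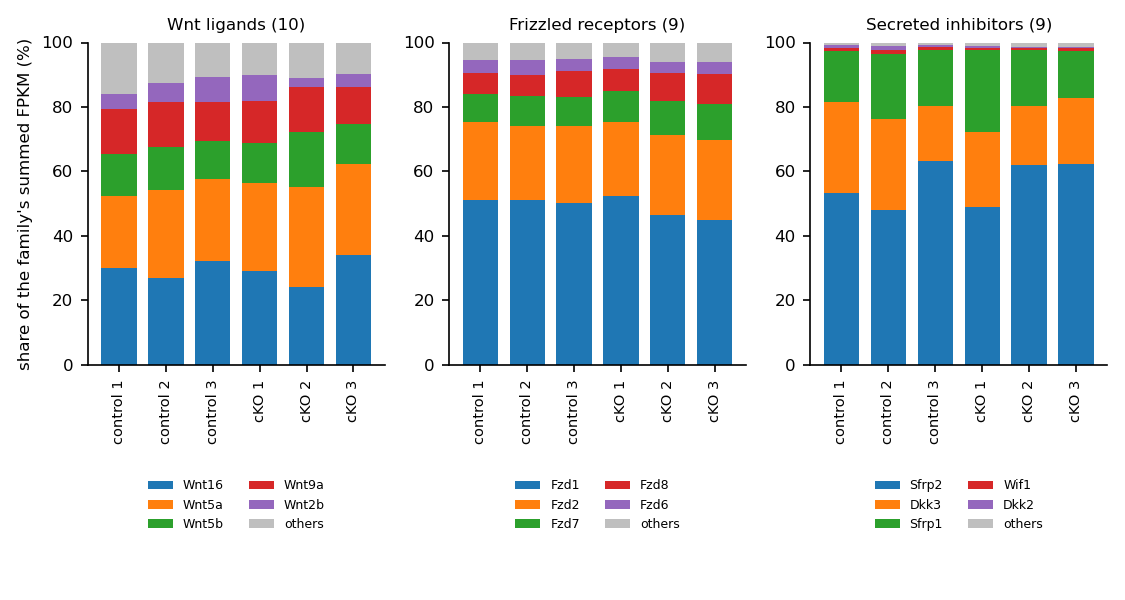
Share of each family's summed FPKM (percent, vertical axis) held by its 5 most abundant genes and by the others in grey, for the 10 ligands, the 9 frizzled receptors and the 9 secreted inhibitors in each of the 6 libraries. Fzd1 held 44.9% to 52.3% of the frizzled FPKM and Sfrp2 47.9% to 63.4% of the inhibitor FPKM, while the 2 leading ligands, Wnt16 and Wnt5a, exchanged first place in control replicate 2 and cKO replicate 2.

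Across the pathway no member passed the test. The levels were compared as log2(FPKM + 1) with limma, with Benjamini-Hochberg adjustment over all 11590 genes tested, and the log2 difference (cKO minus control, with its standard error, SE) understates the change of low genes on this scale. None of the 48 tested members and 0 of the 11590 genes (0%) had an adjusted p under 0.05. The smallest adjusted p among members was 0.312, which was also the smallest of all genes. Members were evenly split, 24 with a higher and 24 with a lower mean under the cKO label and a median log2 difference of -0.0018 (all tested genes -0.018, with 5128 higher and 6462 lower). In 30 of the 48 the log2 difference was within 0.2 of 0, as it was in 9374 of all 11590.

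An unadjusted p under 0.05 was met by 10 of the 48 members (20.8%) and by 13.1% of all tested genes. Of these 10, 3 were higher (5.37% of all genes) and 7 lower (7.76%). The groups did not overlap in 3 members that were higher (6.51% of all genes) and 8 that were lower (11.8%). Single libraries moved these counts. The count of lower members was 4, 3, 2 and 3 without control replicate 1, control replicate 2, cKO replicate 2 and cKO replicate 3, and the count of higher members was 8 without control replicate 3 and 8 without cKO replicate 1. With the level of Y-linked genes as a covariate 3 members were lower, and with median-of-ratios scaling 4, against 7.

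**Figure D3:**
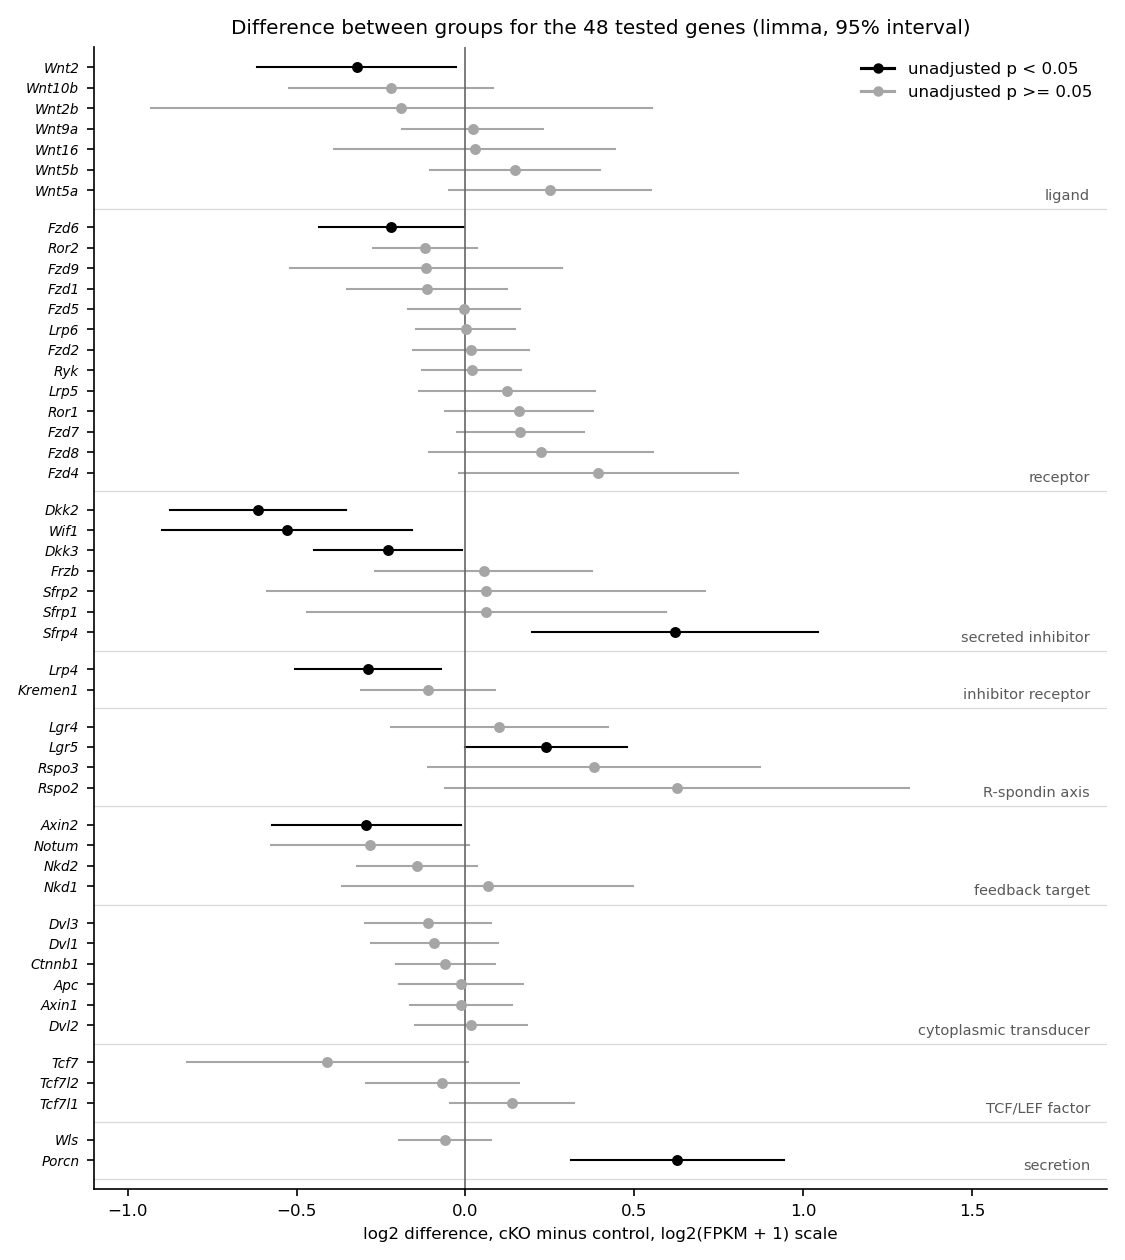
Log2 difference of each of the 48 tested members (cKO minus control, log2(FPKM + 1) scale, horizontal axis) with its 95% interval from limma, grouped by role; black marks an unadjusted p under 0.05. Dkk2 (-0.61) and Porcn (0.63) have the smallest p of the 48, and none of the 48 had an adjusted p under 0.312.

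The secreted inhibitors held the most members with an unadjusted p under 0.05, 4 of 7 tested. That is 57.1%, against 13.1% of all tested genes, and rests on 7 genes of which none passed adjustment. It is the highest share of any role, and members and lists were chosen with earlier results of these data known. Of the 4, 1 was higher (5.37% of all genes) and 3 were lower (7.76%). The median log2 difference over the 7 was 0.05. With a filter of 1 FPKM or more in every library, which leaves out Frzb, that median was -0.08. Its sign thus depended on which inhibitors were counted. Dkk2, a Dickkopf protein that binds Lrp5 and Lrp6, was at 4.37, 5.12 and 4.09 (control replicates 1 to 3) against 3.02, 2.65 and 2.18 (cKO replicates 1 to 3) FPKM. Every cKO library was below every control library, and the cKO mean was 0.578 of the control mean (4.53 ± 0.533 against 2.62 ± 0.421, SD, n = 3), a log2 difference of -0.61 (SE 0.11, unadjusted p = 0.000869, adjusted p = 0.312). Wif1, which binds WNT proteins directly, was at 4.58, 6.42 and 6.46 in the control libraries and 4.31, 2.91 and 3.97 in the cKO-labelled ones. The groups did not overlap, although control replicate 1 and cKO replicate 1 were close, and the log2 difference was -0.53 (SE 0.16, unadjusted p = 0.0121, adjusted p = 0.312). Sfrp4, a secreted frizzled-related protein whose loss is known to thin cortical bone, went the other way, at 2.31, 2.29 and 2.80 in the control libraries and 2.99, 4.77 and 5.53 in the cKO-labelled ones. Its groups did not overlap, cKO replicate 1 was only just above control replicate 3, and the log2 difference was 0.62 (SE 0.18, unadjusted p = 0.0107, adjusted p = 0.312).

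Leaving out cKO replicate 1 brought both Dkk2 (log2 difference -0.69, adjusted p = 0.0352 from limma) and Sfrp4 (0.83, adjusted p = 0.0231) past the threshold, 2 of the 48 members, when 334 of 11522 genes (2.9%) passed. The library left out lay nearest to the controls for Dkk2, Wif1 and Sfrp4, and it was left out because each library was in turn. Dkk3 was high in each library, at 144.93, 125.92 and 120.83 in the control libraries and 120.58, 106.74 and 106.04 in the cKO-labelled ones; the groups were separated by 0.25 FPKM and the log2 difference was -0.23 (SE 0.09, unadjusted p = 0.0428, adjusted p = 0.368). Sfrp1 and Sfrp2 did not differ beyond their spread. Sfrp2 was at 275.32, 212.98 and 449.69 in the control libraries and 252.58, 365.66 and 323.78 in the cKO-labelled ones, with a log2 difference of 0.06 (SE 0.27, adjusted p = 0.945) and a 95% interval of -0.59 to 0.71. Sfrp1 ranged from 76.31 to 131.49 and Frzb from 0.94 to 1.67, with log2 differences of 0.06 and 0.05. Sostdc1 (0.54 to 1.46) and Dkk1 were not tested.

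Lrp4 and Kremen1, listed as cell-surface partners of the inhibitors apart from the co-receptors Lrp5 and Lrp6, had lower means. Lrp4, which anchors sclerostin and Dickkopf proteins on bone cells, was at 3.46, 3.62 and 3.18 (control replicates 1 to 3) against 3.06, 2.30 and 2.53 (cKO replicates 1 to 3). Its groups did not overlap and the log2 difference was -0.29 (SE 0.09, unadjusted p = 0.0165, adjusted p = 0.312). Kremen1, a co-receptor of Dickkopf proteins, was far more abundant than Lrp4, at 33.59, 33.31 and 30.28 in the control libraries and 27.18, 32.32 and 30.48 in the cKO-labelled ones. It overlapped between the groups, with a log2 difference of -0.11 (SE 0.08, adjusted p = 0.589).

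**Figure D4:**
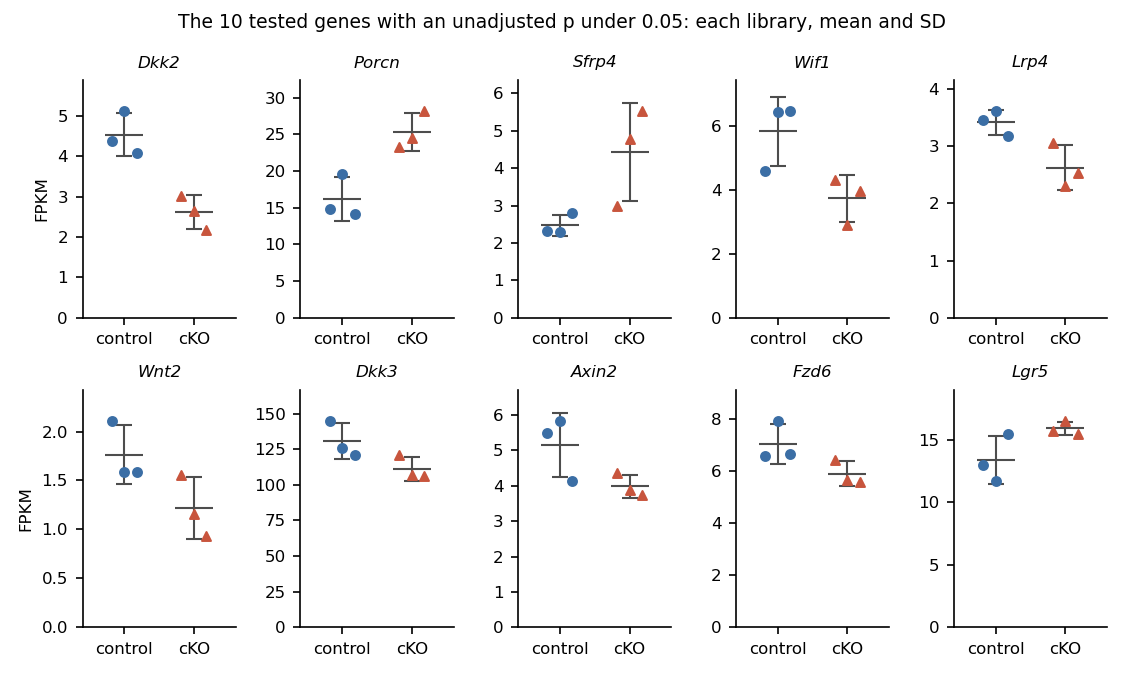
FPKM of the 10 tested members with an unadjusted p under 0.05, ordered by p, in each control library (circles) and each library labelled cKO (triangles), with the mean and SD of each group (n = 3); axes start at 0. Dkk2, at 4.09 to 5.12 in control and 2.18 to 3.02 in cKO libraries, has the smallest p of the 10, and Axin2 is the one gene of the 10 whose groups overlap.

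Of the ligands, 7 were tested, 4 with a higher and 3 with a lower mean (median log2 difference 0.02, and -0.12 with the level of Y-linked genes as a covariate). Wnt2 alone had an unadjusted p under 0.05 (14.3% of the 7, against 13.1% of all tested genes). It was at 2.11, 1.59 and 1.59 (control replicates 1 to 3) against 1.56, 1.16 and 0.93 (cKO replicates 1 to 3) FPKM, low throughout, and control replicates 2 and 3 (1.59 each) were barely above cKO replicate 1 (1.56). The log2 difference was -0.32 (SE 0.12, unadjusted p = 0.0364, adjusted p = 0.356). The leading ligands did not move beyond their spread. Wnt16 was at 9.43, 8.88 and 13.18 in the control libraries and 11.52, 8.45 and 12.07 in the cKO-labelled ones, a log2 difference of 0.03 (SE 0.18, adjusted p = 0.961), with a 95% interval of -0.39 to 0.44. Wnt5a was at 7.07, 8.91 and 10.40 in the control libraries and 10.92, 10.78 and 9.93 in the cKO-labelled ones, overlapping by control replicate 3, with a log2 difference of 0.25 (SE 0.13, adjusted p = 0.435). The others tested had log2 differences of -0.19 (Wnt2b), -0.22 (Wnt10b), 0.02 (Wnt9a) and 0.15 (Wnt5b), with unadjusted p of 0.127 or more. Wnt2b, the widest of them, ranged from 0.94 to 3.21 FPKM within the 6 libraries.

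Release of WNT from the cell is served by Porcn and Wls. Porcn, the acyltransferase that lipidates WNT proteins (chromosome X, 8193848 to 8206525, minus strand, GRCm38), was at 14.83, 19.56 and 14.09 (control replicates 1 to 3) against 23.28, 24.56 and 28.20 (cKO replicates 1 to 3). Every cKO library exceeded every control library, the mean being 1.57 times the control mean (16.2 ± 2.97 against 25.3 ± 2.55, SD, n = 3), with a log2 difference of 0.63 (SE 0.13, unadjusted p = 0.00224, adjusted p = 0.312). Porcn is X-linked, and with the level of Y-linked genes as a covariate its log2 difference was 0.66 (adjusted p = 0.455 from limma). Wls, the carrier of lipidated WNT, was far more abundant at 207.21, 198.19 and 193.91 in the control libraries and 190.25, 190.84 and 193.38 in the cKO-labelled ones. Its groups were apart by 0.53 FPKM, but the log2 difference was -0.06 (SE 0.06, adjusted p = 0.662) with a 95% interval of -0.20 to 0.08.

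Of 13 receptors tested, 8 had a higher and 5 a lower mean, and the median was 0.02. An unadjusted p under 0.05 was met by 1 of them (7.69%, against 13.1% of all tested genes). This was Fzd6, a receptor used in planar cell polarity, at 6.57, 7.94 and 6.65 in the control libraries and 6.45, 5.68 and 5.60 in the cKO-labelled ones. Its groups were separated by 0.12 FPKM between control replicate 1 and cKO replicate 1, with a log2 difference of -0.22 (SE 0.09, unadjusted p = 0.0462, adjusted p = 0.374). Fzd1 was at 80.49, 84.98 and 89.91 in the control libraries and 89.33, 77.62 and 69.93 in the cKO-labelled ones, a log2 difference of -0.11 (SE 0.10, adjusted p = 0.639). Ryk was at 55.56, 58.03 and 55.28 in the control libraries and 59.67, 56.68 and 54.88 in the cKO-labelled ones, a log2 difference of 0.02 (SE 0.06, adjusted p = 0.912).
Ror2, a receptor of Wnt5a, was at 15.89, 17.46 and 15.72 in the control libraries and 15.30, 14.77 and 14.80 in the cKO-labelled ones; the groups did not overlap but the log2 difference was -0.12 (SE 0.06, adjusted p = 0.461). The β-catenin co-receptors Lrp5 and Lrp6 had log2 differences of 0.12 (95% interval -0.14 to 0.38) and 0.00 (95% interval -0.15 to 0.15). Fzd4, a low receptor at 0.53, 0.72 and 1.17 in the control libraries and 0.89, 1.72 and 1.52 in the cKO-labelled ones, had the largest difference of the group, 0.39 (SE 0.17, adjusted p = 0.394), with overlapping groups. Fzd2, Fzd5, Fzd7, Fzd8, Fzd9 and Ror1 had log2 differences between -0.12 and 0.22. Fzd3, under the filter and so not tested, was at 0.77, 0.78 and 0.77 in the control libraries and 0.73, 0.69 and 0.64 in the cKO-labelled ones.

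The 4 tested genes of the R-spondin axis all had higher means in the libraries labelled cKO (median log2 difference 0.31). R-spondins are secreted proteins that keep frizzled receptors on the surface by binding Lgr receptors and removing the ubiquitin ligases Znrf3 and Rnf43. Lgr5 was at 13.02, 11.72 and 15.47 (control replicates 1 to 3) against 15.69, 16.52 and 15.50 (cKO replicates 1 to 3). Its groups were separated by 0.03 FPKM between control replicate 3 and cKO replicate 3, and the log2 difference was 0.24 (SE 0.10, unadjusted p = 0.0499, adjusted p = 0.380). Rspo3, the most abundant R-spondin with 65.7% to 76.6% of the family's FPKM, was at 9.24, 8.07 and 12.82 in the control libraries and 9.90, 14.56 and 15.71 in the cKO-labelled ones, a log2 difference of 0.38 (SE 0.21, adjusted p = 0.466). Rspo2 was at 2.18, 2.32 and 3.83 in the control libraries and 2.68, 6.41 and 5.89 in the cKO-labelled ones, a log2 difference of 0.63 (SE 0.29, adjusted p = 0.406). In both genes cKO replicate 1 lay among the control libraries and cKO replicates 2 and 3 above them all. Lgr4, at 7.61 to 11.21 FPKM, had a log2 difference of 0.10 (SE 0.14, adjusted p = 0.763). Rspo1 (0.34 to 1.18) and Lgr6 (0.11 to 0.56) were under the filter and overlapped. Summed over the 6 genes, FPKM was 32.89 to 42.32 in the control libraries and 39.45 to 49.51 in the libraries labelled cKO, so the groups overlapped by control replicate 3.

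The feedback targets, genes that β-catenin turns on and that in turn dampen the pathway, gave 3 lower and 1 higher mean among 4 tested (median log2 difference -0.21). Axin2, a scaffold of the destruction complex, was at 5.48, 5.83 and 4.12 (control replicates 1 to 3) against 4.35, 3.87 and 3.73 (cKO replicates 1 to 3). Control replicates 1 and 2 were the highest libraries, control replicate 3 lay among the libraries labelled cKO, and the log2 difference was -0.29 (SE 0.12, unadjusted p = 0.0430, adjusted p = 0.368). Notum, which removes the lipid from WNT proteins, was at 1.37, 1.67 and 1.11 in the control libraries and 1.25, 0.90 and 0.74 in the cKO-labelled ones, a log2 difference of -0.28 (SE 0.12, adjusted p = 0.392). Nkd2, an inhibitor that binds Dishevelled, was at 10.40, 10.37 and 8.87 in the control libraries and 8.97, 8.82 and 8.70 in the cKO-labelled ones, a log2 difference of -0.14 (SE 0.08, adjusted p = 0.452). Both showed the overlap seen for Axin2. Nkd1, the relative of Nkd2, did not share the direction of the mean, at 7.04, 5.30 and 6.38 in the control libraries and 4.70, 7.92 and 7.43 in the cKO-labelled ones, a log2 difference of 0.07 (SE 0.18, adjusted p = 0.898) and a 95% interval of -0.37 to 0.50. Znrf3 was at 0.62, 0.86 and 0.74 in the control libraries and 0.56, 0.76 and 0.81 in the cKO-labelled ones, and Rnf43 at 0.46, 0.43 and 0.22 in the control libraries and 0.27, 0.20 and 0.47 in the cKO-labelled ones. Both were under the filter and their groups overlapped.

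Among the TCF/LEF factors, Tcf7l1, mostly a repressor, held 54.1% to 66.4% of the family's FPKM, and Lef1 at most 2.19%. Tcf7, itself a target of the pathway in several tissues, was at 3.02, 2.72 and 1.61 (control replicates 1 to 3) against 1.95, 1.44 and 1.32 (cKO replicates 1 to 3). As for Axin2, control replicates 1 and 2 were highest and control replicate 3 lay among the libraries labelled cKO, with a log2 difference of -0.41 (SE 0.18, unadjusted p = 0.0531, adjusted p = 0.382). Tcf7l1 was at 9.64, 10.49 and 10.65 in the control libraries and 10.48, 12.30 and 11.41 in the cKO-labelled ones, a log2 difference of 0.14 (SE 0.08, adjusted p = 0.477). Tcf7l2 was at 4.81, 5.81 and 4.98 in the control libraries and 5.54, 4.49 and 4.72 in the cKO-labelled ones, a log2 difference of -0.07 (SE 0.10, adjusted p = 0.772). Lef1 was under the filter at 0.36, 0.25 and 0.31 in the control libraries and 0.28, 0.30 and 0.39 in the cKO-labelled ones.

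The cytoplasmic transducers showed small differences. All 6 log2 differences were within 0.2 of 0, as in 9374 of all 11590 tested genes. An unadjusted p under 0.05 was met by 0 of 6, against 13.1% of all tested genes. Ctnnb1, which encodes β-catenin, was among the most abundant members at 282.44, 264.62 and 271.34 in the control libraries and 264.13, 269.68 and 251.50 in the cKO-labelled ones. Its log2 difference was -0.06 (SE 0.06, adjusted p = 0.688), with a 95% interval of -0.21 to 0.09. Dvl1, a Dishevelled scaffold that relays the frizzled signal, was at 27.33, 28.79 and 24.82 in the control libraries and 24.84, 23.95 and 26.93 in the cKO-labelled ones, a log2 difference of -0.09 (SE 0.08, adjusted p = 0.630). Dvl2, Dvl3, Axin1 and Apc had log2 differences of 0.02, -0.11, -0.01 and -0.01. Ctnnb1 mRNA does not measure β-catenin protein, whose level is set mainly by degradation.

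**Figure D5:**
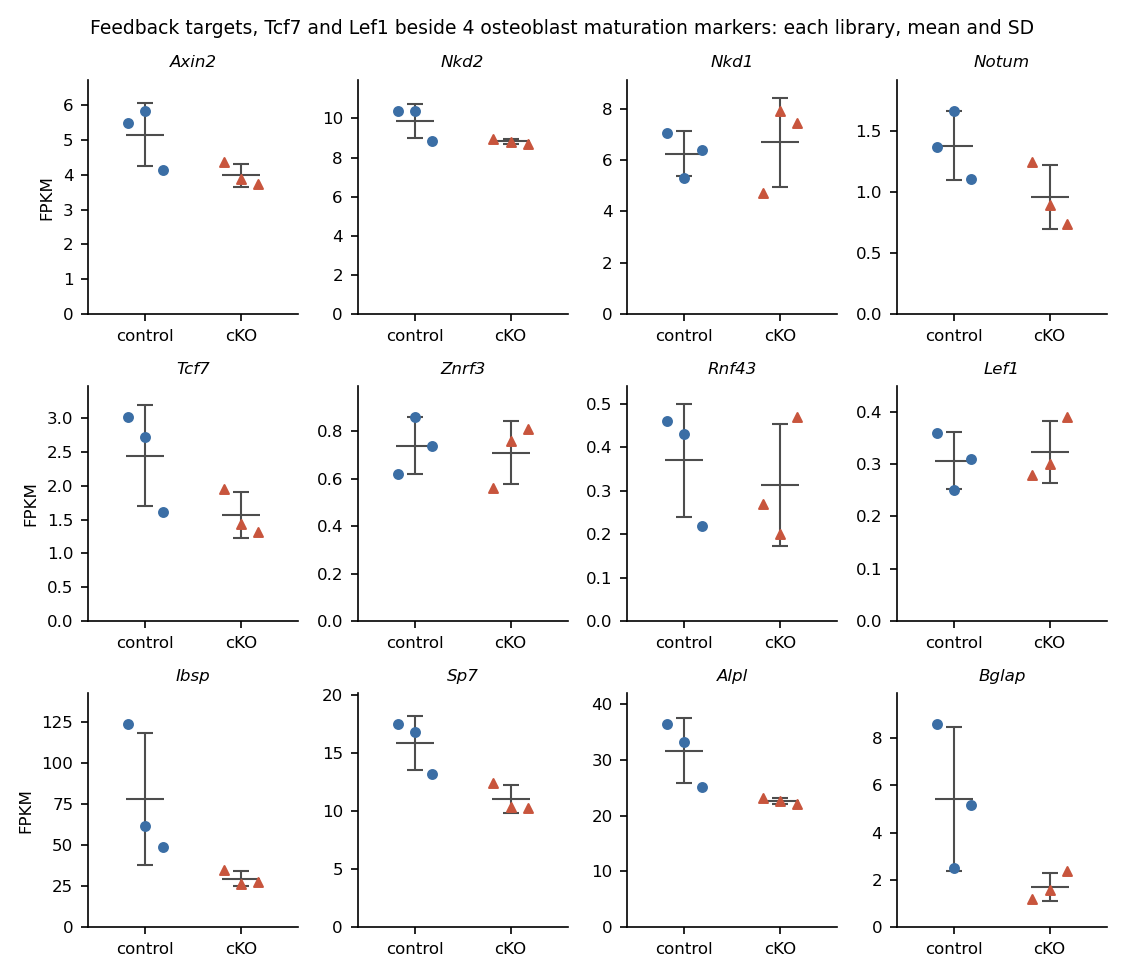
FPKM of the 6 feedback targets, Tcf7 and Lef1 (first 8 panels) and of 4 osteoblast maturation markers (last 4) in each control library (circles) and each library labelled cKO (triangles), with the mean and SD of each group (n = 3); axes start at 0. Axin2, Tcf7 and Notum have control replicate 3 among the cKO libraries, while Ibsp, Sp7, Alpl and Bglap do not overlap between the groups. These 4 markers were picked from 11 listed, and 5 of the 10 tested did not overlap. Of those 10, 2 that are not shown (Spp1 and Dlx5) had a higher mean in the libraries labelled cKO.

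Other genes of the pathway were counted in the same way. Of 72 further components, 63 had a row and 52 were tested. Of these, 18 had a higher and 34 a lower mean (median log2 difference -0.04). At an unadjusted p under 0.05, 1 was higher and 4 lower (9.62% together, against 13.1% of all tested genes), and none passed adjustment. The higher one was Tle1, a Groucho co-repressor of TCF factors, at 10.44, 11.90 and 10.40 in the control libraries and 12.49, 13.27 and 15.51 in the cKO-labelled ones, a log2 difference of 0.31 (SE 0.10, adjusted p = 0.312). The 4 lower were Apcdd1 (-0.27), a membrane-bound WNT inhibitor, Cby1 (-0.21), a β-catenin antagonist, the ligand Wnt7b (-0.25) and Daam2 (-0.16), a Dishevelled partner. Wnt7b, at 1.86 to 2.89 FPKM, was more abundant than Wnt2.

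Of 28 further genes known as WNT targets in other settings, 27 had a row and 26 were tested. Of these, 13 were higher and 13 lower, with a median of 0.0017. At an unadjusted p under 0.05, 3 were higher (5.37% of all tested genes) and 5 lower (7.76%). Together they were 30.8% of the list, against 13.1% of all tested genes, and none passed adjustment. This list too was chosen with earlier results of these data known. Apcdd1 is counted in both lists. The 5 with the smallest p were Tnfrsf19, Msx1, Jag1, Cd44 and Msx2. Tnfrsf19, a receptor of the TNF family, was at 21.91, 20.72 and 23.90 in the control libraries and 15.54, 16.89 and 17.11 in the cKO-labelled ones, a log2 difference of -0.40 (SE 0.08, unadjusted p = 0.00115, adjusted p = 0.312). The homeobox genes Msx1 and Msx2, which also answer to BMP signals, had lower means. Msx1 was at 21.93, 26.18 and 20.64 in the control libraries and 16.00, 14.01 and 11.75 in the cKO-labelled ones, a log2 difference of -0.68 (SE 0.13, unadjusted p = 0.00123, adjusted p = 0.312), and Msx2 had a log2 difference of -0.62. Cd44, the hyaluronan receptor, had a lower mean (-0.27), and Jag1, a Notch ligand, a higher one (0.61), with overlapping groups. Ccnd1 (cyclin D1) was at 104.26, 94.37 and 60.84 in the control libraries and 65.56, 76.59 and 51.65 in the cKO-labelled ones, with overlapping groups, and Myc had a log2 difference of 0.04; both were named after their values were seen, as the targets cited most often.

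Markers of maturation and of other cell types differed in mean between the groups too, and their part in the results for WNT genes was not tested. For comparison, 5.37% of all tested genes were higher and 7.76% lower at an unadjusted p under 0.05. Without overlap between the groups, 6.51% were higher and 11.8% lower. Of 11 markers of maturing osteoblasts, 10 were tested, 8 had a lower mean, and 5 did not overlap and had an unadjusted p under 0.05: Ibsp (log2 difference -1.27), Bglap (-1.15), Ifitm5 (-1.05), Sp7 (-0.48) and Alpl (-0.45). Bglap may share reads with its near-identical copy Bglap2 (-0.34) and is uncertain. Summed FPKM of the list, most of it Col1a1, was 9508 to 10502 in the control libraries and 9997 to 10177 in the libraries labelled cKO. Of 8 adipocyte markers, all 5 tested had higher means and 2 an unadjusted p under 0.05, with sums of 36.33 to 53.84 against 77.31 to 122.21. Fabp4 made up 13.91 to 22.45 of the control sums and 49.33 to 85.35 of the cKO sums, while Plin1 and Cidec were at or near 0. All 4 tested epithelial markers of 5 had higher means, 3 at an unadjusted p under 0.05, with sums of 5.81 to 16.32 against 24.22 to 46.18 and Epcam at 0 in control replicate 1. All 5 tested cartilage markers of 6 had higher means, 2 at an unadjusted p under 0.05, with overlapping sums (96.42 to 158.54 against 137.23 to 173.56) and Matn1 at 0 in 5 of 6 libraries.
Suture and fibrous mesenchyme markers gave 6 lower of 7 tested, 1 lower and 1 higher at an unadjusted p under 0.05, with sums of 743.38 to 816.58 against 632.92 to 750.43. Macrophage and osteoclast markers (8 tested), muscle markers (7 tested), the 1 endothelial and the 1 osteocyte marker tested had 0 with an unadjusted p under 0.05. Their sums overlapped. They were 320.61 to 422.35 against 332.73 to 387.73 for macrophages and osteoclasts and 2691.84 to 2857.76 against 2481.14 to 2720.63 for muscle. Endothelium was at 1.97 to 4.06 against 1.94 to 3.59 and osteocytes at 51.50 to 78.62 against 50.42 to 88.99. Most of the macrophage and osteoclast sum was Ctsk (mean FPKM 283), of the muscle sum Acta2 (1893) and of the osteocyte sum Pdpn (65.3). Ptprc (0.125), Myod1 (0.703) and Mepe (0.1) were low, so these sums mainly follow single genes and do not measure the content of those cell types.

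The counting was not stated to use strand. In GENCODE M21, exons of Axin2, Ctnnb1, Dvl1, Dvl2, Fzd5, Fzd6, Lef1, Notum, Rspo3, Sfrp2, Tcf7l1, Wnt11 and Wnt5a overlap those of a gene on the other strand, whose reads could not be told apart from theirs. Dkk2 (chromosome 3, 132085292 to 132180304), Sfrp4 (chromosome 13, 19623104 to 19632994), Wif1 (chromosome 10, 121033960 to 121100650) and Lrp4 (chromosome 2, 91457511 to 91513779), all on the plus strand of GRCm38, and Porcn had no such overlap.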

How the data were processed

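RNA from 6 libraries of cultured mouse calvarial preosteoblasts (3 control, 3 cKO) was sequenced by the authors as 150 bp paired-end reads. The submitters' processing notes name HISAT2, DESeq and GRCm38. The authors deposited 1 table of FPKM values, 1 per gene symbol and library, with 2 decimals. Its file name calls the values raw counts, but they are not whole numbers, so no count test was run. The program that computed FPKM is not given in the sources used here. The depth of the libraries is unknown.

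Levels were compared as log2(FPKM + 1) using R 4.3.3 and limma 3.58.1 (functions lmFit and eBayes, all 6 libraries, no covariate) over rows at 1 FPKM or more in 3 or more libraries, with Benjamini-Hochberg adjustment over all of them. The procedure was also run on simulated data, and no statement on its power is drawn from that here. The members and lists were chosen with earlier results of these data known. Values per library are given for members with an unadjusted p under 0.05, for the 2 most abundant of each role, and for Axin2, Notum, Nkd1, Nkd2, Znrf3, Rnf43, Lef1 and Tcf7. From the pathway lists, at most 5 genes with the smallest p are named. Members named beyond this, the search for the shorter core and the order of libraries were chosen after values were seen. Promoter sequences are from RefSeq and gene positions from GENCODE M21, which is not stated to be the annotation the authors counted on. Rows are gene symbols, 25 of them turned into dates, which were kept in the tests and not named. The 16 alternatives covered pseudocount, filter, scaling, variance trend, replicate block, Y-linked level and each library left out.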

Additional observations from a re-analysis of the deposited data

How the results depend on the processing

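No alternative with all 6 libraries gave a member with an adjusted p under 0.05. Leaving out 1 library at a time, 0 to 2 members passed (2 without cKO replicate 1, Dkk2 and Sfrp4), as did 0 to 334 of all genes. At an unadjusted p under 0.05, leaving out 1 library gave 852 to 2459 genes against 1521, 2 to 8 higher members against 3 and 2 to 10 lower members against 7. Lower members numbered 4 with median-of-ratios scaling and 3 with the Y-linked covariate. The replicate block gave 5 higher and 8 lower members, 0 members past adjustment and 1465 genes at an unadjusted p under 0.05. The labels do not say whether same-numbered libraries were paired. The correlation of their deviations from the group means was 0.03, -0.17 and 0.21 (replicates 1 to 3). With 3 libraries a group, these values can neither show nor exclude a pairing.

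Among the members whose values are given by library under the naming rule, 5 reversed direction, all with a log2 difference within 0.2 of 0. Wnt16 was at -0.12 with the Y-linked covariate and -0.073 to 0.19 with a library left out. Sfrp2 was at -0.023 with that covariate and -0.18 to 0.36 with a library left out. Leaving out a library also took Ryk from -0.013 to 0.047, Nkd1 from -0.055 to 0.27 and Tcf7l2 from -0.14 to 0.0014. The 10 members with an unadjusted p under 0.05 kept their direction in all alternatives that included them. The cause of these shifts was not tested. The median log2 difference of the secreted inhibitors was 0.05 over the 7 tested. It was -0.08 and -0.09 under the filters that required FPKM of at least 1 in every library or a mean of at least 0.5. These filters changed which inhibitors were counted. The first left out Frzb (0.94 FPKM in cKO replicate 1), and the second took in Sostdc1 (mean 0.895). That of the ligands, 0.02, was -0.12 with the Y-linked covariate. The median of all genes was -0.018, and 0.0016 with median-of-ratios scaling, which moved the split of members from 24 lower and 24 higher to 21 and 27. With 3 libraries a group and unknown depth, differences within the spread were not detectable here.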

Other observations

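One order of libraries recurred among the members. In 12 of the 48 tested members (25%), control replicates 1 and 2 were the 2 highest of the 6 libraries, as in 1515 of all 11590 tested genes (13.1%). The order was noticed in Axin2 and Tcf7 after their values were seen. The 12 were Axin2, Notum, Nkd2, Tcf7, Dkk2, Dkk3, Lrp4, Kremen1, Wnt10b, Ror2, Dvl1 and Wls, and so included 3 of the 4 tested feedback targets. Of 10 tested markers of maturing osteoblasts, 5 had the same 2 libraries highest (Sp7, Alpl, Ibsp, Ifitm5 and Runx2) and 5 did not (Bglap, Bglap2, Spp1, Dlx5 and Col1a1). Sp7, for example, was at 17.57, 16.86 and 13.20 FPKM in the control libraries and 12.44, 10.40 and 10.31 in the libraries labelled cKO, whereas Bglap was at 8.61, 2.52 and 5.16, then 1.20, 1.56 and 2.38. Control replicate 3 was also the highest library for Sfrp2 and Wnt16. Control replicates 1 and 2 were also the control libraries at or near 0 for Y-linked genes (summed FPKM 0.01 and 0.29). Control replicate 3 was at 54.74, and cKO replicates 1 to 3 were at 52.84, 0.01 and 49.57. Whether this split has a part in the order was not tested. The share of members was not tested against that of all genes.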
